A study of Mus musculus with 2 samples.

Results

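The 10 genes described here encode subunits of GATOR1, GATOR2 and mTORC1, the complexes through which mammalian cells read their amino acid supply, together with the leucine sensor Sesn2. They were found by symbol in a table of 17359 genes, and all 10 were present: Depdc5, Nprl2 and Nprl3 (GATOR1), Mios, Wdr24 and Wdr59 (GATOR2), Sesn2, and Mtor, Rptor and Mlst8 (mTORC1). Every one had a mean level of at least 1 TPM (transcript abundance relative to all transcripts of a library), a condition that 12882 genes met, and those 12882 genes are the background below. The RNA came from neural stem cells of the mouse, which renew themselves and give neurons and glia, in a study of the nuclear pore subunit Seh1 and neurogenesis. One group had been transfected with small interfering RNA (siRNA) against Chd4 (siChd4, genotype label Chd4 knockdown) and the other with scrambled siRNA (siSCR, genotype label control). Each group was 1 library, so no difference below has been set against the spread between cultures, and none has a p-value. The sources used here give neither the mouse strain and age nor the sequence, dose and duration of the siRNA.

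mTORC1 is a kinase complex at the lysosome surface that promotes protein synthesis and growth when amino acids are plentiful. Small Rag GTPases recruit it there. GATOR1 switches the Rag GTPases off and so restrains mTORC1, while GATOR2 opposes GATOR1. Sestrin2, the product of Sesn2, binds GATOR2 when leucine is scarce, and leucine releases it. GATOR2 also contains Seh1 (Seh1l) and Sec13, which are subunits of the nuclear pore as well, and Sec13 serves in the coat of secretory vesicles too. In neural tissue the pathway is best known from human DEPDC5, NPRL2 and NPRL3, in which loss-of-function mutations cause focal epilepsy and cortical malformations.

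The siChd4 library held 20072009 estimated counts and the siSCR library 19816811. Chd4, which the siRNA targets and which encodes a chromatin remodelling ATPase of NuRD, was at 203 TPM in siChd4 against 250 TPM in siSCR. That is a fold of 0.815 (95% counting interval 0.795 to 0.836), and 19.4% of the background genes had a lower log2 ratio. The log2 ratio of Chd4 was -0.29, or -0.14 with the length trend described below subtracted. Neural stem cell markers were all present: the 10 listed ranged between 18.6 TPM (Pax6) and 7004 TPM (Fabp7) in siChd4, and between 18.2 TPM (Hes5) and 6105 TPM (Fabp7) in siSCR. Their summed level was 12839 TPM in siChd4 against 10393 TPM in siSCR, most of it Fabp7 and Vim. Over the 10 markers the median log2 ratio was 0.09, 4 were below 0 (background 55.3%), and the lowest was Notch1 (0.670-fold). Markers of other cell types differed more. All 6 neuronal markers were above 0 (background 44.5%) with a median log2 ratio of 0.94. Of these, 4 passed 1.5-fold upwards (background 6.75%): Tubb3 (4.6-fold), Dcx (2.93-fold), Snap25 (2.18-fold) and Syp (1.80-fold). The sum of the 6, 630 TPM in siChd4 against 471 TPM in siSCR, is mostly Map2, at 516 TPM in siChd4 against 427 TPM in siSCR. The 4 oligodendrocyte lineage markers with a mean of at least 1 TPM were all above 0 as well (background 44.5%), with a median of 0.87. Sox10, on 171 estimated counts in siChd4 and 22 in siSCR, Pdgfra and Mbp passed 1.5-fold upwards (background 6.75%). The 4 summed to 56.2 TPM in siChd4 against 38.2 TPM in siSCR, mostly Cspg4, at 30.3 TPM in siChd4 against 28.2 TPM in siSCR. Mog, below that minimum, was at 0.07 TPM in siChd4 against 0.09 TPM in siSCR. Of the 5 astrocyte markers, 3 were below 0 (background 55.3%) and the median was -0.19. Gja1 was at 40.8 TPM in siChd4 against 105 TPM in siSCR (0.387-fold), while Aldh1l1, at 421 TPM in siChd4 against 309 TPM in siSCR, put their sum at 496 TPM in siChd4 against 451 TPM in siSCR. The 5 microglial markers in the table were at 0.31 TPM or less in siChd4 and 0.61 TPM or less in siSCR. Of the fibroblast and endothelial markers, 1 each reached a mean of 1 TPM, Col1a1 at 1.96 TPM in siChd4 against 0.64 TPM in siSCR, and Kdr at 1.21 TPM in siChd4 against 0.86 TPM in siSCR. The part of these markers in the results below was not tested. In bulk RNA, fewer cells of a type and less RNA per cell cannot be told apart.

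Most of the 10 genes were slightly lower in siChd4, and none of them by a large factor. On the scale of log2(TPM + 1), 8 were below 0 and 2 above, against 55.3% and 44.5% of the background genes. Their median log2 ratio of siChd4 over siSCR was -0.19, and that of all background genes was -0.04. None of the 10 passed a 1.5-fold difference, which 6.75% of background genes passed upwards and 4.47% downwards. At a narrower limit of 0.32 on the log2 scale, 1 gene was lower (Depdc5; background 17.1%) and none was higher (background 14.9%). Depdc5 no longer passed that limit on TMM-scaled CPM (-0.23) or with the length trend described below subtracted (-0.27), and with a pseudocount of 0.1 Nprl3 passed it as well (-0.32). The counting interval of the fold left out 1 for 7 lower genes (background 34.1%) and 1 higher gene (background 25.1%). Such intervals describe counting error alone, and without molecular identifiers reads may repeat a molecule. Summed over the 10 genes the level was 306 TPM in siChd4 against 335 TPM in siSCR, a ratio of 0.914.

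**Figure D1:**
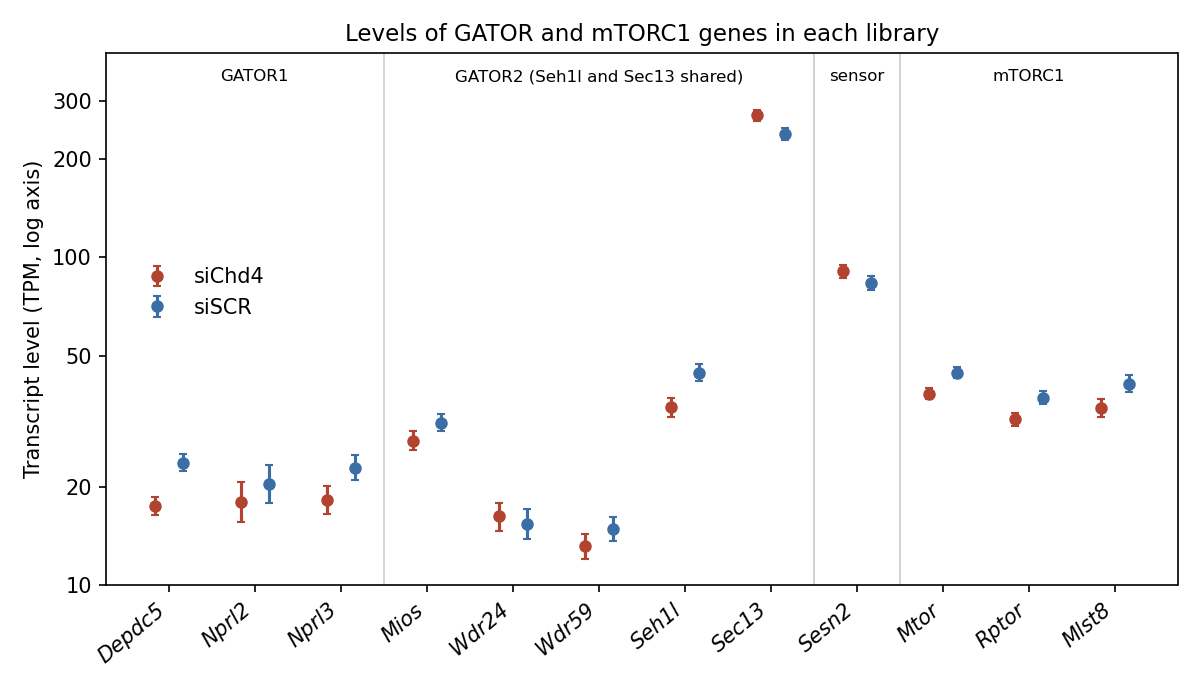
Level of each gene in TPM (vertical log axis) in siChd4 (red, left of each pair) and siSCR (blue, right), 1 library each; bars are exact Poisson 95% intervals of the estimated counts, scaled to TPM. The 3 GATOR1 genes and the 3 mTORC1 genes sit lower in siChd4 (background 55.3%), while Wdr24, Sec13 and Sesn2 sit higher (background 44.5%).

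All 3 GATOR1 genes were lower in siChd4 (background 55.3%). In TPM they lay further below siSCR than the mTORC1 genes by their median log2 ratio (-0.31 against -0.21). That order did not hold on TMM-scaled CPM, where Depdc5 was at -0.23, Nprl3 at -0.28 and Nprl2 at -0.15, against -0.27 for Mtor, -0.21 for Rptor and -0.24 for Mlst8. Depdc5, the largest subunit, was at 17.4 TPM in siChd4 against 23.6 TPM in siSCR. Its fold was 0.738 (0.676 to 0.805) and its log2 ratio -0.42, with 10.4% of background genes lower still. This was the lowest of the 10 in TPM, but Nprl3 was lower than Depdc5 on TMM-scaled CPM and with the length trend subtracted, and on TMM-scaled CPM so were Mtor and Mlst8. Nprl3, which forms a heterodimer with Nprl2, was at 18.2 TPM in siChd4 against 22.8 TPM in siSCR (0.798-fold, 0.698 to 0.908), and 17.9% of background genes had a lower ratio. Nprl2, the subunit that carries the GTPase-activating residue, was at 18.0 TPM in siChd4 against 20.4 TPM in siSCR. Its fold of 0.881 has an interval of 0.728 to 1.07, since it rests on 211 estimated counts in siChd4 and 229 in siSCR, the fewest of the 10 genes. On so few counts, a difference of that size was not separated from counting error. The 3 genes together summed to 53.6 TPM in siChd4 against 66.9 TPM in siSCR, a ratio of 0.802.

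GATOR2 was mixed. Mios, a WD-repeat subunit of its core, was at 27.6 TPM in siChd4 against 31.3 TPM in siSCR (0.882-fold, 0.806 to 0.965). Wdr59, the least abundant of the 10 genes in both libraries, was at 13.2 TPM in siChd4 against 14.9 TPM in siSCR, and the upper end of its interval, 0.783 to 0.999, lay just under 1. Wdr24, a subunit with WD repeats and a RING domain, went the other way with 16.2 TPM in siChd4 against 15.4 TPM in siSCR, but its interval of 0.911 to 1.21 includes 1. The 2 shared subunits, which are not among the 10, lay on opposite sides of 1. Seh1l was at 34.9 TPM in siChd4 against 44.5 TPM in siSCR (0.783-fold, 0.715 to 0.858), and Sec13 was at 271 TPM in siChd4 against 238 TPM in siSCR (1.14-fold, 1.08 to 1.20). Levels in TPM are per transcript length, so they can be set against each other within a library. Sec13 was 9.81 times as abundant as Mios in siChd4 and 7.59 times in siSCR, and Seh1l 1.26 times in siChd4 and 1.42 times in siSCR. With both shared subunits added, the median log2 ratio of the 12 genes was again -0.19.

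Sesn2 was the most abundant of the 10 genes and one of the 2 that were higher in siChd4. It was at 90.7 TPM in siChd4 against 83.6 TPM in siSCR, from 1969 estimated counts in siChd4 and 1722 in siSCR, a fold of 1.08 (1.02 to 1.16). Of the background genes, 69.6% had a lower log2 ratio. Its paralogs did not share a direction. Sesn1 was at 29.5 TPM in siChd4 against 28.7 TPM in siSCR (1.03-fold, 0.919 to 1.15), and Sesn3 at 39.1 TPM in siChd4 against 46.9 TPM in siSCR (0.834-fold, 0.751 to 0.925). The fold interval of Sesn2 lay wholly above those of 7 of the other 9 genes and overlapped those of Wdr24 and Nprl2.

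The 3 mTORC1 genes were lower in siChd4 (background 55.3%), by nearly the same factor in TPM. The factors were no longer alike once the length trend described below was subtracted. That left Mtor at -0.01, Rptor at -0.06 and Mlst8 at -0.21 on the log2 scale. Mtor, the kinase, was at 38.4 TPM in siChd4 against 44.5 TPM in siSCR (0.863-fold, 0.817 to 0.911). Rptor, which encodes the scaffold Raptor that binds substrates and the Rag GTPases, was at 32.1 TPM in siChd4 against 37.3 TPM in siSCR (0.859-fold, 0.804 to 0.918). Mlst8, which stabilises the kinase domain and also belongs to mTORC2, was at 34.7 TPM in siChd4 against 41.2 TPM in siSCR (0.842-fold, 0.770 to 0.920). The 3 intervals overlap one another, and between 24.3% and 28.0% of background genes had lower ratios. The ratio of Mtor to Rptor was 1.20 in siChd4 and 1.19 in siSCR. The remaining mTORC1 genes are inhibitory subunits. Akt1s1 (PRAS40) was at 114 TPM in siChd4 against 111 TPM in siSCR, and Deptor at 1.40 TPM in siChd4 against 1.68 TPM in siSCR; both intervals include 1.

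**Figure D2:**
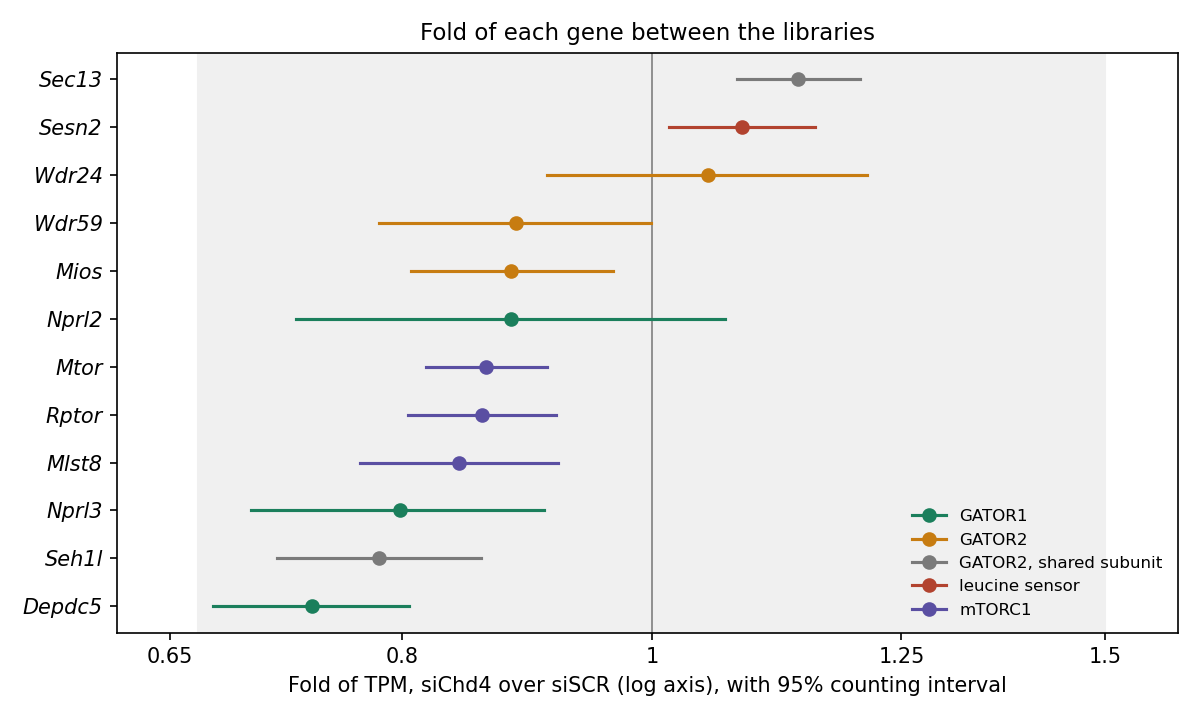
Fold of TPM, siChd4 over siSCR (horizontal log axis), for the 10 genes and the shared subunits Seh1l and Sec13; points are folds, lines 95% counting intervals, colours the complex, and the grey band the range within 1.5-fold of 1. All 12 intervals lie inside the band, between 0.676 for Depdc5 and 1.21 for Wdr24.

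The order of levels was much the same in the 2 libraries. Sesn2 came first, then Mtor, Mlst8, Rptor and Mios, in siChd4 and in siSCR alike, and Wdr24 and Wdr59 came last. The counting intervals of Mtor and Mlst8, and of Mlst8 and Rptor, overlap in each library, so these neighbours are not separated. The GATOR1 genes lay between Mios and Wdr24 in both, although in siChd4 the interval of Wdr24 overlaps that of each GATOR1 gene. In siChd4 they came as Nprl3, Nprl2 and Depdc5, and in siSCR as Depdc5, Nprl3 and Nprl2, with overlapping intervals between neighbours each time. Wdr24 stood apart from Wdr59 in siChd4 but not in siSCR. In rank among all background genes, Sesn2 was above 82.4% of them in siChd4 and 80.0% in siSCR, and Wdr59 above 30.9% in siChd4 and 33.0% in siSCR.

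For Depdc5 alone among the 10, the transcript length behind the TPM differed between the libraries by over 1.1-fold relative to the median gene (background 3.6%). This length, the estimated counts divided by FPKM and by the library total, was 6.63 kb for Depdc5 in siChd4 and 5.89 kb in siSCR. The ratio of 1.13, relative to the median gene, was further from 1 than that of 97.6% of genes. In CPM (counts scaled to the library total), which use no length, the fold of Depdc5 was 0.865 in place of 0.738. Length makes up only part of that gap. The factor between TPM and FPKM, shared by all genes of a library, was 2.41 in siChd4 and 2.51 in siSCR. It lowers the fold of TPM of every gene slightly. Smaller differences ran the other way for Mtor, at 7.66 kb in siChd4 and 8.15 kb in siSCR, and for Mios, at 3.97 kb in siChd4 and 4.18 kb in siSCR. Their folds of CPM were 0.844 and 0.873, close to those of TPM, because their length differences raise the fold of TPM and that shared factor lowers it. GENCODE M21 lists 11 coding transcripts for Depdc5 between 0.327 and 8.22 kb, 2 for Mtor of 1.003 and 8.564 kb, and 1 for Mios of 3.71 kb. The sources used here do not say which transcripts the authors' annotation holds. For the other 7 genes the ratio of lengths lay between 0.982 and 1.01.

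Ratios showed a trend with transcript length that was lowest for long transcripts, with a median log2 ratio of -0.21 for the longest 10% of genes against 0.01 for the shortest 10%. Mtor, Rptor and Depdc5 have the longest transcripts of the 10. With the trend subtracted, the log2 ratio of Mtor was -0.01 in place of -0.21, that of Rptor -0.06 in place of -0.21, and that of Depdc5 -0.27 in place of -0.42. The shorter GATOR1 gene Nprl3 stayed at -0.29 and Mlst8 at -0.21. Under all 7 scales and scalings tried, the same 8 genes were below 0, and Sesn2 and Wdr24 above it. Of all background genes, between 47.7% (FPKM) and 55.3% (TPM) were below 0. These settings rescale the same 2 libraries and are not independent of one another.

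**Figure D3:**
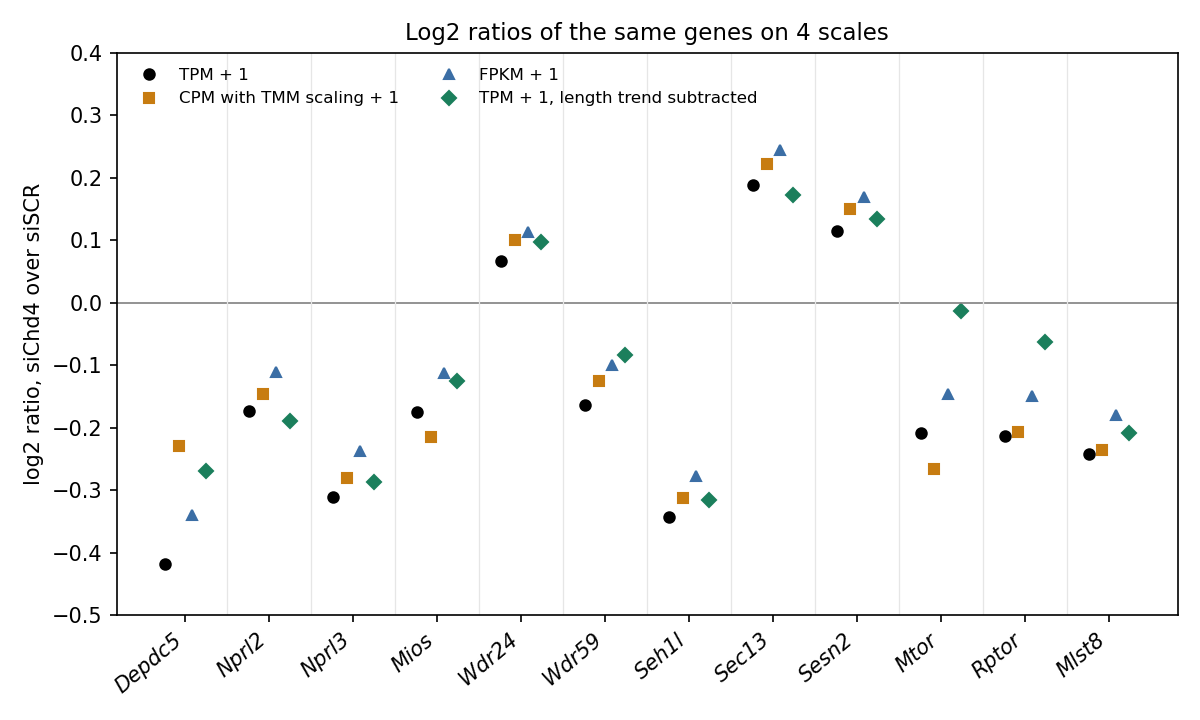
Log2 ratio of siChd4 over siSCR (vertical axis) of each gene on 4 scales: TPM + 1 (circles), CPM with TMM scaling + 1 (squares), FPKM + 1 (triangles) and TPM + 1 with the length trend subtracted (diamonds). No gene crosses 0; Depdc5 spans -0.42 to -0.23 and Mtor -0.27 to -0.01.

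Promoter sequences are shown for the 2 genes with the lowest ratios and for the abundant gene with the highest, Sesn2. RefSeq (assembly GRCm38.p6) gave a window of 300 bases, 250 before and 50 after the transcription start, for 9 of the 10 genes; Wdr24 was the exception. Capitals mark GC boxes (GGGCGG) and CCAAT boxes (CCAAT), each searched on both strands; the pair of GC boxes in Depdc5 written CCGCCCCGCCC shares 1 base. The windows are chr5:32863471-32863770 on the plus strand for Depdc5, chr11:32267658-32267957 on the minus strand for Nprl3, and chr4:132510407-132510706 on the minus strand for Sesn2, each written 5′ to 3′.
Depdc5: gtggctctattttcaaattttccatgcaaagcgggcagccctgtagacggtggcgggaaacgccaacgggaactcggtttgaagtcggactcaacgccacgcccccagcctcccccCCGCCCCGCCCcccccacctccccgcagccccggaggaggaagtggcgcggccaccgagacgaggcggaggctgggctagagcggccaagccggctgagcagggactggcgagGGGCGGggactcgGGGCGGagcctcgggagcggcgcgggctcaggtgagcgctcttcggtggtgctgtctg
Nprl3: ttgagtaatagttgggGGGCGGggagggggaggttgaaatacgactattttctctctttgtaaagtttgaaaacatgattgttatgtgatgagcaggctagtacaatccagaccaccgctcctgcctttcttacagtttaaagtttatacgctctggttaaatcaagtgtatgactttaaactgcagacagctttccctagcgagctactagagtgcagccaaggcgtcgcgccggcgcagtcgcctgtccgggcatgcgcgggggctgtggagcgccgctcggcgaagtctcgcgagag
Sesn2: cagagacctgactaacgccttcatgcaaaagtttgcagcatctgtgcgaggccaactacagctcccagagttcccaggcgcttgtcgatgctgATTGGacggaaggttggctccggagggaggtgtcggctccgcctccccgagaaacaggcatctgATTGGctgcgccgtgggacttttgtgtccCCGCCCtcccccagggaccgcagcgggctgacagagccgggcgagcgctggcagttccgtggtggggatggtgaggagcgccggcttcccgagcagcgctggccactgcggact

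GC boxes, the binding letters of Sp factors, were in 5 of the 9 windows (Depdc5, Mios, Mtor, Nprl3 and Sesn2), and in 35.7% of all 32851 windows. CCAAT boxes were in 3 of 9 (Mtor, Sesn2 and Wdr59), and in 37.4% of all. The E-box CACGTG, which TFEB and TFE3 bind, and the ATF4 element TGATGNAAN were in none of the 9, and in 7.15% and 3.95% of all windows. The Depdc5 window was 70.3% G and C, the Sesn2 window 64.7% and the Nprl3 window 52.0%, against a median of 52.7%.

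Around these complexes, 1 gene of the KICSTOR, sensor, Rag, Ragulator and folliculin lists passed 1.5-fold (background 4.47% downwards and 6.75% upwards). Of KICSTOR, which holds GATOR1 at the lysosome, Itfg2 was at 23.0 TPM in siChd4 against 19.0 TPM in siSCR (1.21-fold, 1.05 to 1.40) and Kptn at 19.4 TPM in siChd4 against 16.6 TPM in siSCR (1.17-fold, 0.967 to 1.40). Of 7 amino acid sensor genes above the minimum, Sesn2 included, none passed 1.5-fold and the median log2 ratio was 0.04. Lars, the leucyl-tRNA synthetase that also senses leucine, was at 75.1 TPM in siChd4 against 84.5 TPM in siSCR. The 9 Rag and Ragulator genes had a median of 0.03 and none past 1.5-fold, with Lamtor1 at 173 TPM in siChd4 against 169 TPM in siSCR, and Lamtor2 at 135 TPM in siChd4 against 137 TPM in siSCR. They went both ways: Rragb was at 30.9 TPM in siChd4 against 39.4 TPM in siSCR (0.784-fold, 0.701 to 0.876), and Lamtor4 at 56.0 TPM in siChd4 against 43.5 TPM in siSCR (1.29-fold, 1.1 to 1.51). The gene past 1.5-fold belongs to the folliculin complex, which activates RagC and RagD. Fnip2 was at 9.70 TPM in siChd4 against 19.8 TPM in siSCR (0.489-fold, 0.441 to 0.541), and only 0.769% of background genes had a lower log2 ratio. Its paralog Fnip1 was at 16.7 TPM in siChd4 against 22.4 TPM in siSCR, and Flcn at 35.6 TPM in siChd4 against 36.1 TPM in siSCR, so the 3 genes of the complex were not lower to a like extent.

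Growth factor input and the partner complexes held 1 gene past 1.5-fold. The 5 genes of the TSC complex and Rheb, the switch that activates mTORC1, had a median log2 ratio of 0.02 and none past 1.5-fold; Rheb was at 184 TPM in siChd4 against 196 TPM in siSCR, and Tsc2 at 59.3 TPM in siChd4 against 56.1 TPM in siSCR. Among 16 genes of insulin and AMPK signalling, 10 were below 0 (background 55.3%) and 1 passed 1.5-fold downwards (background 4.47%), both near the background shares. This was Pik3r1, a regulatory subunit of PI3-kinase, at 92.4 TPM in siChd4 against 149 TPM in siSCR (0.620-fold, 0.599 to 0.642), although its log2 ratio of -0.68 was -0.52 with the length trend subtracted, within the limit. The median of the 16 was -0.08, but 0.04 with that trend subtracted. All 4 mTORC2 genes were below 0 (background 55.3%), with a median of -0.29, and 3 of the 4 were below 0 with the length trend subtracted. Mapkap1 was at 77.4 TPM in siChd4 against 97.8 TPM in siSCR (0.792-fold, 0.742 to 0.844), and Prr5 at 15.6 TPM in siChd4 against 18.8 TPM in siSCR. The TTT factors and their ATPases, which assemble mTOR complexes, had 4 of 5 genes below 0 (background 55.3%). Ruvbl1 was at 64.3 TPM in siChd4 against 82.7 TPM in siSCR, and Ruvbl2 at 118 TPM in siChd4 against 147 TPM in siSCR.

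Downstream, 14 genes for mTORC1 substrates had a median of -0.11, or -0.05 with the length trend subtracted. Of these, 10 were below 0 (background 55.3%) and none passed 1.5-fold (background 4.47% downwards and 6.75% upwards). The most abundant were the translation repressor Eif4ebp2, at 120 TPM in siChd4 against 134 TPM in siSCR, and the RNA polymerase III repressor Maf1, at 86.6 TPM in each library. ATF4 targets, which include Sesn2, had a median of 0.06 over 22 genes. With the pseudocount of 1, 1 passed 1.5-fold: Nupr1, a small stress protein, at 5.41 TPM in siChd4 against 1.5 TPM in siSCR (3.61-fold, 1.49 to 9.60). It rested on 26 estimated counts in siChd4 and 6.83 in siSCR. Pycr1, at 5.43 TPM in siChd4 against 8.38 TPM in siSCR (0.648-fold, 0.489 to 0.860), passed the limit downwards only with a pseudocount of 0.1. Atf4 itself was at 209 TPM in siChd4 against 191 TPM in siSCR. The 14 amino acid transporter genes had a median of 0.08, and the proton-coupled amino acid transporter gene Slc36a4 passed 1.5-fold, at 22.2 TPM in siChd4 against 13.7 TPM in siSCR (1.61-fold, 1.46 to 1.79). The 15 p53 targets, which include Sesn1 and Sesn2, had none past 1.5-fold and a median of -0.05, which turned to 0.01 with FPKM and to 0.06 once the length trend was subtracted. The most abundant were the cell cycle inhibitor gene Cdkn1a, at 662 TPM in siChd4 against 577 TPM in siSCR, and Ccng1, at 556 TPM in siChd4 against 612 TPM in siSCR.

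Known targets of TFEB, the lysosomal transcription factor that mTORC1 keeps out of the nucleus, were mostly higher in siChd4. Of 25 genes, 19 were above 0 (background 44.5%), 3 passed 1.5-fold upwards (background 6.75%) and 1 downwards (background 4.47%), and the median log2 ratio was 0.28. The peptidase gene Tpp1 was at 72.4 TPM in siChd4 against 29.3 TPM in siSCR (2.47-fold, 2.26 to 2.71). The cathepsin gene Ctsf was at 61.4 TPM in siChd4 against 33.0 TPM in siSCR, and the hexosaminidase subunit gene Hexa at 100.01 TPM in siChd4 against 56.0 TPM in siSCR. The 1 gene past the limit downwards, Ppargc1a, encodes a coactivator of mitochondrial genes. It was at 13.9 TPM in siChd4 against 36.9 TPM in siSCR (0.376-fold, 0.345 to 0.410). Tfeb was at 5.11 TPM in siChd4 against 6.61 TPM in siSCR, with an interval that includes 1, and Tfe3 at 39.0 TPM in siChd4 against 32.8 TPM in siSCR (1.19-fold, 1.08 to 1.31). Neuronal and oligodendrocyte markers were higher in siChd4 as well, as given above, and their part in this list was not tested. Transcript levels do not measure the activity of mTORC1 or the place of TFEB in the cell.

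**Figure D4:**
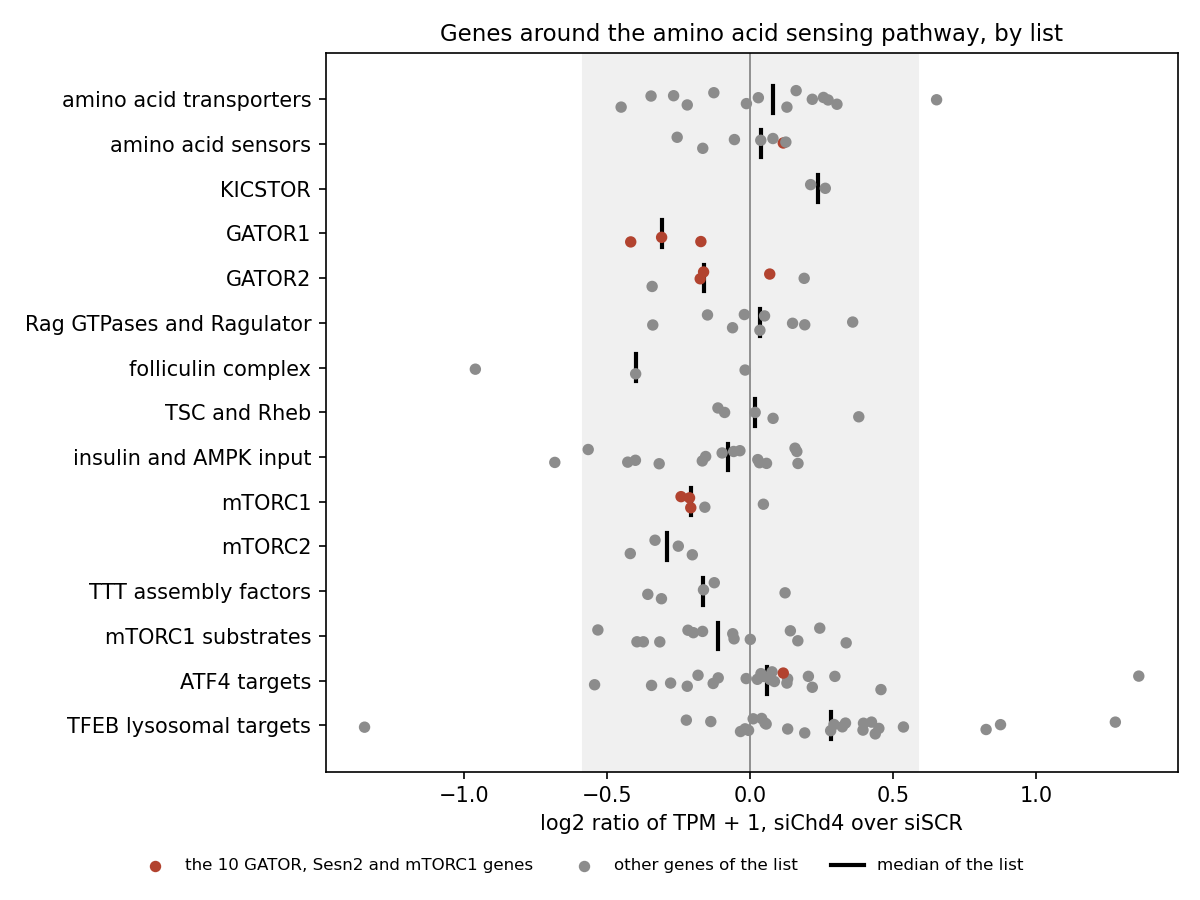
Log2 ratio of TPM + 1, siChd4 over siSCR (horizontal axis), of each list gene reported here whose mean TPM was 1 or more. The p53 targets and the cell type markers are not drawn. Red points are the 10 genes described here, grey points the other genes, black bars the list medians, and the grey band the range within 1.5-fold. The red points all lie inside the band, and the points outside it are Fnip2, Pik3r1, Nupr1, Slc36a4, Ppargc1a, Tpp1, Ctsf and Hexa.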

How the data were processed

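The authors deposited 1 table with FPKM, TPM and an estimated count per gene for 1 siChd4 and 1 siSCR library, per the file headers. The submitters' processing notes name mm39 as the build. The sources used here do not name the aligner, counter, annotation or use of strand, nor say how reads of several transcripts were divided, on which TPM rests. The deposited count columns hold estimated counts, since only 17.8% (siChd4) and 16.0% (siSCR) were whole. Deposited TPM and FPKM differ by 1 factor per library.

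Log2 ratios used TPM plus a pseudocount of 1, which understates differences of low genes, over genes whose mean TPM was 1 or more; the 1.5-fold limit is on that scale. Fold intervals are exact Clopper-Pearson 95% intervals from counts rounded to whole numbers, scaled to TPM (scipy 1.17.1). A floor of 3 counts was 0.149 CPM in siChd4 and 0.151 CPM in siSCR. The fold and interval computation was tested on simulated counts. Length trends used lowess (statsmodels 0.14.6, span 0.3), and TMM factors edgeR 4.0.16. TMM-scaled CPM, FPKM, 2 other scalings and a pseudocount of 0.1 were alternatives. No test between conditions was possible with 1 library per group.

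The members and lists were chosen with earlier results of these data known. From each list the rule named genes past 1.5-fold (at most 4 per direction) or, with none, the 2 most abundant; markers are given mostly as counts, medians and sums. Genes named beyond that (Sesn1, Sesn3, Deptor, Rragb, Lamtor4, Fnip1, Flcn, Atf4, Pycr1, Tfeb, Tfe3, and the markers Pax6, Hes5, Notch1, Map2, Cspg4, Mog and Aldh1l1) were picked after their values were seen. One gene that is no subunit of the folliculin complex was then removed from that list. Some genes of the lists are not reported here, and list counts leave them out.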

Additional observations from a re-analysis of the deposited data

How the results depend on the processing

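None of the 10 genes passed 1.5-fold under any scale or scaling; with a limit of 0.32 on the log2 scale in its place 1 was lower, since that limit is narrower, and with 2-fold none. The median log2 ratio of the 10 genes stayed below 0, between -0.21 (CPM with TMM scaling) and -0.10 (length trend subtracted). Of 78 alternative values for the 10 genes, Seh1l, Sec13 and Chd4, 70 stayed within counting error of the reported value, 8 moved further and none changed sign. Those that moved were Depdc5, at -0.23 on TMM-scaled counts and -0.27 with the length trend subtracted, Mtor (-0.01) and Rptor (-0.06) with that trend subtracted, and Chd4 in 4 settings (between -0.25 and -0.14). Counting error is wide for genes with few counts and narrow for Chd4, and the alternatives rescale the same counts. The 70 of 78 is thus no measure of agreement between cultures. List medians under other scalings were added after the data were seen. The share of genes past 1.5-fold was 9.64% with no filter and 8.92% where the mean TPM was 5 or more, against 11.2%. No paired analysis was possible because siChd4 and siSCR had 1 library each, so none could be left out either. Depth limits Nprl2 most, which had the fewest counts of the 10.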
